A study of Mus musculus with 16 samples.

Results

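The 40 kinesin genes of the count table were taken as every row whose symbol is Kif followed by a number and at most 1 letter, or is Kifc1, Kifc2 or Kifc3, out of 38720 rows. Kinesins are motor proteins that use ATP to walk along microtubules or to take their ends apart. Some build and move the spindle during mitosis and are made mainly in dividing cells. Others carry vesicles, organelles and the cargo of cilia, and are made whether or not a cell divides. By these roles 12 members were placed with the mitotic kinesins, 17 with the transport kinesins and 11 with other kinesins. The other kinesins are cilium, centriole and microtubule end regulators, and members with little described motor activity. The last 2 groups together are called non-mitotic. This name marks the grouping and does not exclude a part in mitosis, for instance of Kif2a and Kif2b.

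RNA was measured in adipose progenitors, the stromal cells of fat that give rise to adipocytes, from mice 4 weeks old. The groups were Nr4a1-/- subcutaneous (KO SAT), Nr4a1+/+ subcutaneous (WT SAT), Nr4a1-/- visceral (KO VAT) and Nr4a1+/+ visceral (WT VAT), with 4 libraries each that the labels call biological replicates. Nr4a1 encodes an orphan nuclear receptor induced quickly by many stimuli. The genotype label of the KO mice is B6;129S2-Nr4a1tm1Jmi/J and that of the WT mice is wild type, while the strain label of both is C57BL/6J, so an effect of the allele and one of 129S2 sequence linked to it cannot be told apart. The allele is carried by the whole animal and not by progenitors alone. The labels do not state whether different replicates came from different mice, so the p-values describe the spread among these 16 libraries, part of which may be technical.

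Library totals ran from 34655519 to 55551845 counts. Nr4a1 itself was listed at 195 to 209 counts per 1000000 (CPM) in KO SAT, against 997 to 1211 CPM in WT SAT, and at 297 to 327 CPM in KO VAT, against 1431 to 1648 CPM in WT VAT, so every library matched its genotype label in direction. The progenitor markers Pdgfra, Pdgfrb, Cd34, Ly6a and Dcn were present in every group. WT SAT replicate 3 stood apart from its group. Its log2 CPM values had a mean correlation of 0.976 with the others of that group, against 0.981 to 0.990 for each of the other 15 libraries, and its genes in the shortest quartile of exon length lay 0.27 log2 units above the group mean at the median while those in the longest quartile deviated by -0.20. KO VAT replicate 4 deviated the same way, by 0.12 and -0.10.

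Of the 40 kinesins, 38 passed the filter on low counts and were tested among 16842 genes, and all 12 mitotic members were among them. Kif12, a kinesin known from kidney and bile duct epithelium, had 0 to 20 counts per library, and Kif2b, a microtubule depolymerase known from testis, had 0 to 18. All libraries of KO SAT had 0 counts of both, which allows up to 3 counts in each library, and no fold change was computed for either gene.

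Levels of different kinesins were compared only as CPM per kilobase of exon, averaged over the 16 libraries. On this scale the family was led by transport motors. Kif1c, a vesicle motor, had 24.97 CPM per kb and Kif5b, the conventional kinesin heavy chain found in most tissues, had 19.6 CPM per kb. Kif3a, a subunit of the heterotrimeric motor that enters cilia, followed at 10.7 CPM per kb, Kif2a, which takes microtubule ends apart, at 8.49 CPM per kb, and Kifc3, which walks toward the minus end, at 7.13 CPM per kb. Kif1c and Kif5b led in each of the 4 groups, but the order below them varied. In KO SAT Kif2a stood at 11.5 CPM per kb, above Kif3a at 9.74 CPM per kb, with Kifc3 at 4.69 CPM per kb. In KO VAT Kifc3 stood at 8.73 CPM per kb, above Kif2a at 6.37 CPM per kb. The mitotic members were all low on the 16-library mean: Kif11 was their highest at 1.23 CPM per kb and Kif14 their lowest at 0.169 CPM per kb, although in WT VAT Kif20a, at 0.759 CPM per kb, was above Kif11, at 0.721 CPM per kb. Summed over members, mitotic kinesins made up 7.10% ± 0.850 of all kinesin counts in KO SAT and 2.86% ± 0.671 in WT SAT, and 8.83% ± 0.907 in KO VAT and 3.39% ± 0.202 in WT VAT (SD, n = 4 each).

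The summed level of the mitotic kinesins was 53.6, 56.8, 55.7 and 70.4 CPM in KO SAT libraries 1 to 4, against 23.8, 19.6, 16.98 and 30.7 CPM in WT SAT libraries. In visceral progenitors it was 67.1, 75.8, 86.3 and 80.0 CPM in KO VAT, against 31.3, 29.1, 25.8 and 28.6 CPM in WT VAT. Each KO library lay above every WT library of its depot. The summed level of the non-mitotic kinesins averaged 773 ± 19.7 CPM in KO SAT and 770.4 ± 49.0 CPM in WT SAT, and 798 ± 23.0 CPM in KO VAT and 817 ± 22.2 CPM in WT VAT (SD, n = 4 each), and there KO and WT libraries overlapped in both depots. In bulk RNA a difference in the number of dividing cells and one in the RNA per dividing cell cannot be told apart.

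**Figure D1:**
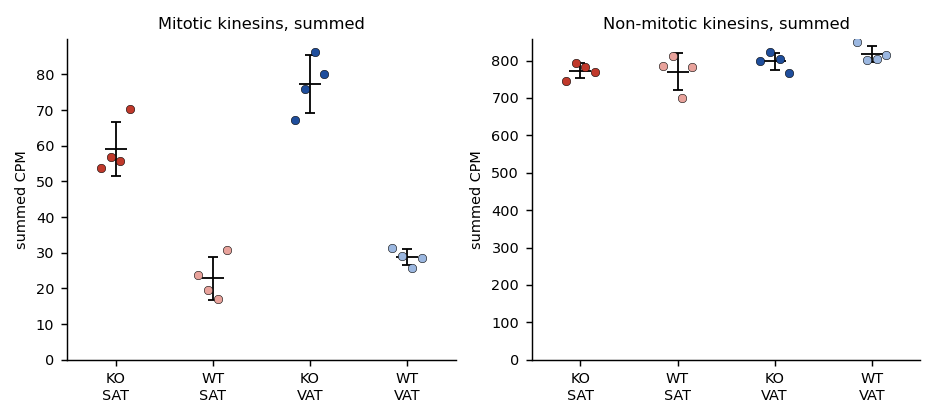
Summed CPM of the 12 mitotic kinesins (left) and of the 28 non-mitotic kinesins (right). Each point is a library, the bars give the mean and SD of 4 libraries, and both axes start at 0. The mitotic sums of the KO groups lie above those of the WT groups in both depots, while the non-mitotic sums overlap.

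The mitotic kinesins rose in Nr4a1-/- progenitors of both depots. In SAT 11 of 12 were higher in KO and 0 were lower (edgeR adjusted p under 0.05, taken as a call throughout), beside a background of 3.46% of all tested genes called higher in that comparison and 2.43% called lower, 5.89% in all. In VAT 11 of 12 were higher and 0 lower, beside 2.84% called higher and 1.26% called lower, 4.10% in all (478 and 212 genes, or 585 and 139 when libraries were scaled by their totals). No mitotic member had a negative fold change in either depot, and DESeq2 and limma-voom each called the same numbers. The median log2 fold change of the mitotic members was 1.40 in SAT (range 0.43 to 2.23) and 1.51 in VAT (range 0.47 to 1.94), against a median of -0.01 and -0.00 over all tested genes. All 4 KO libraries lay above all 4 WT libraries for 11 members in SAT and for 12 in VAT, where 7.95% and 7.02% of all tested genes did so. In both depots the member that missed the call was Kif18a.

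**Figure D2:**
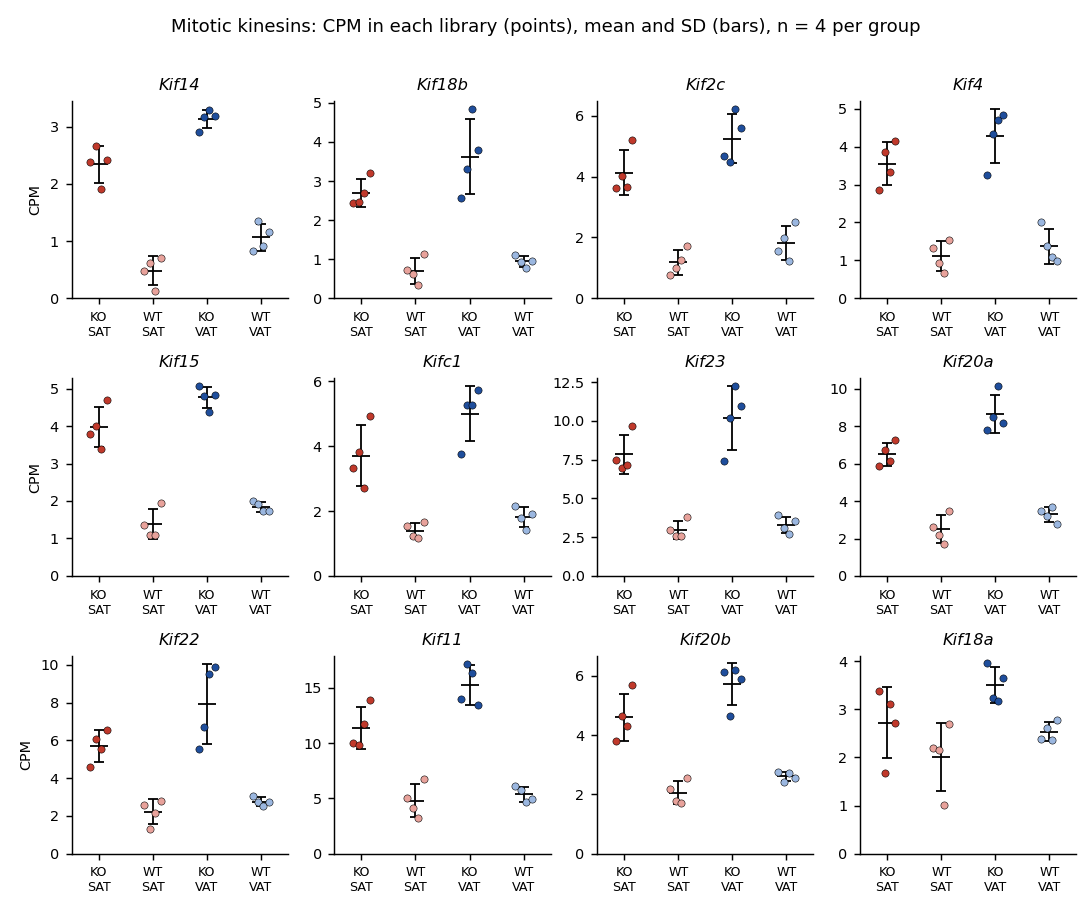
CPM of each mitotic kinesin in every library, ordered by its fold change in SAT. Points are libraries, bars give the mean and SD of 4 libraries, and each axis starts at 0 with its own scale. KO points lie above WT points in every panel and depot except Kif18a in SAT, where they overlap.

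The letters TTTGAA form the commonest version of the cell cycle genes homology region, a promoter element known to be bound by MuvB complexes in genes that peak in mitosis. They are printed because they set most mitotic kinesins apart from the rest of the family in sequence. RefSeq windows from 250 bases before to 50 bases after the gene start (build GRCm38.p6) were found for 32 members, 36 windows in all since some members have several listed starts. TTTGAA stood on either strand of 10 of the 11 mitotic windows (90.9%), 1 of 13 transport windows (7.69%), 2 of 12 windows of other kinesins (16.7%) and 17.9% of all 32851 windows. The mitotic window with no match was that of Kif18a. TTTGAA also stood in 13 of 19 windows (68.4%) of a list of genes whose proteins work with mitotic kinesins. The letters are thus not particular to the motors. The letters were searched with the results known, a match is a description of the sequence and not a bound site, and no test was made. In 8 of the 10 genes the match nearest to the start began between positions -19 and 20 from it, and those of Kif14 and Kif2c began at -228 and -103. These positions are counted from the RefSeq start of the window, which for Kif14, Kif2c and Kif4 lies 1505, 3867 and 328 bases inside the gene as GENCODE vM21 bounds it. The matches of all 3 thus lie within the annotated gene, as do those of Kif15, Kif18b, Kif20b, Kif22 and Kifc1. Those of Kif11 and Kif23 lie before the GENCODE start. The nearest match of each gene is given on the strand that reads TTTGAA, in capitals, with 10 bases on each side.
Kif11 (chr19:37376353-37376378, minus strand): gcgcctcaatTTTGAAaaatggagac
Kif15 (chr9:122951052-122951077, minus strand): tggccgcagaTTTGAAtttggcgccc
Kifc1 (chr17:33890617-33890642, plus strand): acccgccactTTTGAAtttcaacctc
Kif4 (chrX:100626074-100626099, plus strand): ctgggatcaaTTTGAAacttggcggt
Kif22 (chr7:127042422-127042447, plus strand): gcttctctctTTTGAAttaccggggc
Kif2c (chr4:117178860-117178885, plus strand): attactcaggTTTGAAagagcagcct
Kif18b (chr11:102925106-102925131, minus strand): gaccggctagTTTGAAcgcgccgcgc
Kif23 (chr9:61946782-61946807, minus strand): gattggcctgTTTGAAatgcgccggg
Kif20b (chr19:34922355-34922380, plus strand): gccgccattgTTTGAAtttgaaaacc
Kif14 (chr1:136467610-136467635, plus strand): aggtcctgtcTTTGAAgtctgcagtg

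Further letters were searched on both strands in the same windows, and matches of different motifs were counted apart even where they shared a base. CCAAT, the letters that the factor NF-Y binds, were in 7 of 11 mitotic windows (63.6%), 4 of 13 transport windows (30.8%), 5 of 12 windows of other kinesins (41.7%) and 37.4% of all windows. The variant TTCGAA was in 0 of 11 mitotic and 0 of 13 transport windows and in 1 of 12 windows of other kinesins, against 1.56% of all windows. TTTGAA or TTCGAA together with CCAAT occurred in 7 of 11 mitotic windows, 0 of 13 transport windows, 3 of 12 windows of other kinesins and 7.52% of all windows. Windows of the genes that work with mitotic kinesins had them together in 11 of 19 (57.9%). GGCGGG, a GC-rich element, did not follow this order, with 63.6%, 69.2% and 58.3% of mitotic, transport and other windows against 35.3% of all windows. The 250 bases before the starts of Kif11, which was called in both depots, and of Kif18a, which was not, are printed as examples, with TTTGAA and CCAAT of either strand in capitals. Kif11 shows both, each in its reverse complement, and Kif18a shows neither. The pair does not stand for called against not called members. In these 250 bases alone TTTGAA was in 5 and CCAAT in 7 of the 11 mitotic windows, and Kif20b, called in both depots, also had neither.
Kif11 (chr19:37376132-37376381, plus strand): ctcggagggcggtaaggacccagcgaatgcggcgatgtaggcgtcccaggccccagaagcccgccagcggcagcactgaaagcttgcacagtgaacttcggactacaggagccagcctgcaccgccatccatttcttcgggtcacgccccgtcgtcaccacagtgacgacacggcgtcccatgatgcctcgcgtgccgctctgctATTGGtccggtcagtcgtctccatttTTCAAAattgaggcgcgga
Kif18a (chr2:109280488-109280737, plus strand): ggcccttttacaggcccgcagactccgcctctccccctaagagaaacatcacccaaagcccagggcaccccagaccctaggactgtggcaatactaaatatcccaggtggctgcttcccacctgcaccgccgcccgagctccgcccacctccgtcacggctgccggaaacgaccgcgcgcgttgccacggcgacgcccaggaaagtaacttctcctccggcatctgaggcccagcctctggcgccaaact

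Among the motors that set up the spindle, Kif11 pushes its poles apart by sliding antiparallel microtubules. Kif11 had 10.1, 9.82, 11.7 and 13.9 CPM in KO SAT, against 5.07, 4.16, 3.203 and 6.72 CPM in WT SAT, and 14.02, 17.2, 16.3 and 13.5 CPM in KO VAT, against 6.09, 5.79, 4.69 and 4.96 CPM in WT VAT. All KO libraries were above all WT libraries of their depot, with log2 fold changes of 1.24 ± 0.18 (SE; edgeR adjusted p = 0.000496) in SAT and 1.504 ± 0.18 (8.01e-05) in VAT. Kif15, which can keep a spindle bipolar beside Kif11, had 3.79, 4.01, 3.40 and 4.69 CPM in KO SAT, against 1.37, 1.097, 1.101 and 1.96 CPM in WT SAT, and 5.07, 4.79, 4.38 and 4.83 CPM in KO VAT, against 1.99, 1.91, 1.72 and 1.73 CPM in WT VAT. Its groups did not overlap in either depot, and the log2 fold changes were 1.51 ± 0.17 (SE; edgeR adjusted p = 7.72e-05) in SAT and 1.37 ± 0.17 (9.66e-05) in VAT. Kifc1, which focuses spindle poles and walks toward the minus end, had 3.34, 3.83, 2.71 and 4.93 CPM in KO SAT, against 1.53, 1.23, 1.17 and 1.65 CPM in WT SAT, and 3.77, 5.28, 5.27 and 5.72 CPM in KO VAT, against 2.17, 1.78, 1.41 and 1.92 CPM in WT VAT. It too separated the genotypes fully, by 1.40 ± 0.21 (SE; edgeR adjusted p = 0.000537) in SAT and 1.46 ± 0.20 (0.000266) in VAT on the log2 scale. Kifc1 has a near-identical copy in the mouse genome, Kifc5b, so the split of reads between them is uncertain. Kifc5b, which is no member here, had log2 fold changes of 0.82 (edgeR adjusted p = 0.0662) in SAT and 1.08 (0.0216) in VAT, a VAT call lost without any of KO VAT replicates 2 and 4 and WT VAT replicates 1, 3 and 4 (0.0542 to 0.0791).

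Of the motors on chromosome arms, Kif4 shapes mitotic chromosomes and the central spindle and Kif22 pushes chromosome arms away from the poles. Kif4 had 2.86, 3.86, 3.33 and 4.14 CPM in KO SAT, against 1.32, 0.918, 0.667 and 1.53 CPM in WT SAT, and 3.27, 4.33, 4.71 and 4.85 CPM in KO VAT, against 2.02, 1.39, 1.09 and 0.972 CPM in WT VAT. The KO libraries were all higher, by 1.66 ± 0.26 (SE; edgeR adjusted p = 0.000864) in SAT and 1.65 ± 0.25 (0.000708) in VAT on the log2 scale. Kif22 had 4.61, 6.09, 5.54 and 6.56 CPM in KO SAT, against 2.602, 1.33, 2.14 and 2.81 CPM in WT SAT, and 5.56, 6.704, 9.497 and 9.89 CPM in KO VAT, against 3.06, 2.72, 2.51 and 2.72 CPM in WT VAT. The KO VAT libraries spread widely but none reached down to WT VAT, and the log2 fold changes were 1.36 ± 0.22 (SE; edgeR adjusted p = 0.00117) in SAT and 1.52 ± 0.21 (0.000323) in VAT. Exons of Kif4 share 832 bases with Pdzd11 on the opposite strand, and the library kit does not keep the strand, so reads there cannot be told apart.

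The microtubule end regulators held 2 called members and the one that was not called. Kif2c, which takes microtubules apart at centromeres and frees wrongly attached chromosomes, had 3.62, 4.01, 3.65 and 5.22 CPM in KO SAT, against 0.753, 0.995, 1.27 and 1.72 CPM in WT SAT, and 4.69, 4.48, 6.23 and 5.602 CPM in KO VAT, against 1.56, 1.97, 1.21 and 2.51 CPM in WT VAT. All KO libraries were higher, with log2 fold changes of 1.80 ± 0.25 (SE; edgeR adjusted p = 0.000348) in SAT and 1.53 ± 0.24 (0.000930) in VAT. Kif18b, which shortens the astral microtubules of the spindle, had 2.45, 2.46, 2.69 and 3.21 CPM in KO SAT, against 0.731, 0.612, 0.334 and 1.13 CPM in WT SAT, and 2.56, 3.32, 4.84 and 3.797 CPM in KO VAT, against 1.105, 0.934, 0.772 and 0.953 CPM in WT VAT. This was a clear gap in both depots, 1.92 ± 0.28 (SE; edgeR adjusted p = 0.000462) in SAT and 1.94 ± 0.27 (0.000265) in VAT on the log2 scale. Kif18a, its relative that damps chromosome movement at the metaphase plate, had 3.38, 1.68, 3.101 and 2.72 CPM in KO SAT, against 2.19, 2.14, 1.001 and 2.69 CPM in WT SAT, and 3.96, 3.23, 3.18 and 3.66 CPM in KO VAT, against 2.38, 2.61, 2.35 and 2.78 CPM in WT VAT. The genotypes overlapped in SAT, where KO SAT replicate 2 fell among the WT libraries, and did not overlap in VAT. Its log2 fold changes were 0.43 ± 0.24 (SE; 95% interval -0.10 to 0.96; edgeR adjusted p = 0.304) in SAT and 0.47 ± 0.24 (-0.04 to 0.98; 0.322) in VAT. Whether Kif18a differed in response from the other mitotic kinesins was not tested.

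The remaining mitotic members act at the central spindle, as Kif4 also does, and in cytokinesis. Kif23, the motor subunit of centralspindlin, had 7.49, 6.99, 7.17 and 9.71 CPM in KO SAT, against 2.99, 2.55, 2.57 and 3.82 CPM in WT SAT, and 7.404, 10.2, 12.3 and 10.97 CPM in KO VAT, against 3.901, 3.07, 2.73 and 3.52 CPM in WT VAT. Its log2 fold changes were 1.39 ± 0.18 (SE; edgeR adjusted p = 0.000163) in SAT and 1.63 ± 0.18 (3.56e-05) in VAT, with no overlap. Kif20a, which moves the Aurora B complex to the midzone, had 5.86, 6.73, 6.16 and 7.27 CPM in KO SAT, against 2.602, 2.19, 1.702 and 3.47 CPM in WT SAT, and 7.81, 8.51, 10.2 and 8.16 CPM in KO VAT, against 3.49, 3.19, 3.68 and 2.799 CPM in WT VAT. It separated the genotypes by 1.37 ± 0.17 (SE; edgeR adjusted p = 0.000142) in SAT and 1.39 ± 0.17 (8.83e-05) in VAT, and its exons share 1271 bases with Cdc23 on the opposite strand. Kif20b, which acts late in cytokinesis at the midbody, had 3.82, 4.64, 4.296 and 5.68 CPM in KO SAT, against 2.17, 1.79, 1.702 and 2.55 CPM in WT SAT, and 6.13, 4.66, 6.19 and 5.88 CPM in KO VAT, against 2.75, 2.43, 2.71 and 2.55 CPM in WT VAT. It had the smallest changes among the mitotic members that were called, 1.16 ± 0.16 (SE; edgeR adjusted p = 0.000275) in SAT and 1.13 ± 0.15 (0.000265) in VAT.

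Kif14, which binds citron kinase at the midbody, had the largest fold change of the family in SAT. It had 2.38, 2.67, 1.91 and 2.42 CPM in KO SAT, against 0.479, 0.612, 0.134 and 0.707 CPM in WT SAT, and 2.901, 3.17, 3.29 and 3.19 CPM in KO VAT, against 0.823, 1.35, 0.9102 and 1.17 CPM in WT VAT. WT SAT replicate 3 was the lowest by far, with 4 counts. The log2 fold changes were 2.23 ± 0.30 (SE; edgeR adjusted p = 0.000213) in SAT and 1.56 ± 0.27 (0.00236) in VAT. Without WT SAT replicate 3 the SAT value was 1.96 (edgeR adjusted p = 9.33e-05).

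Replicates of a group also differed in the mitotic kinesins. WT SAT replicate 4 was the highest of its group for 12 of the 12 members, and KO SAT replicate 4 for 10 of 12. WT SAT replicate 3 was the lowest for 8 of 12, WT VAT replicate 3 for 8 of 12 and KO VAT replicate 1 for 7 of 12. WT VAT replicate 1 was the highest for 8 of 12. Some of this order was shared by the 26 tested non-mitotic members, of which WT SAT replicate 3 was the lowest for 15 and WT VAT replicate 1 the highest for 13. Some was not shared, since WT SAT replicate 4 was the highest for 8 and the lowest for 3 and KO SAT replicate 4 was the highest for 6 and the lowest for 9. The proliferation marker Mki67 was highest in 3 of these replicates, at 30.4 CPM in KO SAT replicate 4 (21.6 to 25.2 CPM in the other KO SAT libraries), 9.01 CPM in WT SAT replicate 4 (5.64 to 7.26 CPM in the others) and 11.3 CPM in WT VAT replicate 1 (7.88 to 9.43 CPM in the others). It was lowest in WT VAT replicate 3. In WT SAT and KO VAT its lowest library was replicate 2, at 5.64 and 26.6 CPM, against 7.04 CPM in WT SAT replicate 3 and 33.9 CPM in KO VAT replicate 1.

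The KO effect on the mitotic kinesins was not shown to differ between depots. The difference of the KO effects, VAT minus SAT, was called for 0 of the 12 by edgeR, by DESeq2 and by limma-voom, and 0 had an unadjusted p under 0.05, beside a background of 0.267% of all tested genes called by edgeR (0.131% higher and 0.137% lower, where scaling by library totals split 29 calls into 19 and 10). The median difference was 0.03 on the log2 scale, and single members ran between -0.68 ± 0.40 (Kif14) and 0.26 ± 0.25 (Kif11) (SE). The narrowest 95% interval of the difference was that of Kif20b, -0.51 to 0.44, and the widest those of Kif14, -1.54 to 0.19, and Kif18b, -0.82 to 0.88, so differences of up to such sizes cannot be told from none.

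The proteins that mitotic kinesins work with were given by a list of 20 genes. Of these, edgeR called 18 higher and 0 lower in KO SAT, with a median log2 fold change of 1.46. In KO VAT it called 18 higher and 0 lower, with a median of 1.44. Of all tested genes 3.46% were called higher and 2.43% lower in SAT, and 2.84% and 1.26% in VAT. DESeq2 and limma-voom also called 0 lower, and at an unadjusted p under 0.05 0 were lower in SAT and 1 in VAT. In SAT, Hmmr, a spindle assembly factor, was higher by 1.80 ± 0.15 (edgeR adjusted p = 3.18e-06) and Ect2, which starts furrow contraction under Kif23 and its partner, by 1.84 ± 0.20 (4.91e-05). In VAT, Prc1, the midzone bundler that recruits Kif4, was higher by 1.75 ± 0.17 (edgeR adjusted p = 1.38e-05). Cenpe, the kinetochore kinesin whose symbol the naming rule does not catch, is in this list. It had 5.02, 5.70, 5.42 and 7.49 CPM in KO SAT, against 1.80, 2.48, 3.74 and 3.40 CPM in WT SAT, and 8.97, 7.63, 9.52 and 9.42 CPM in KO VAT, against 3.10, 2.51, 2.20 and 1.85 CPM in WT VAT. All KO libraries were above WT, by 1.06 (edgeR adjusted p = 0.00539) in SAT and 1.88 (3.99e-05) in VAT on the log2 scale.

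Most transport and other kinesins changed little with genotype. In SAT the median log2 fold change was 0.04 for the 17 transport and 0.29 for the 9 tested other kinesins, and in VAT 0.03 and 0.19. The summed level of the other kinesins was 89.7 to 101 CPM in KO SAT and 75.7 to 84.6 CPM in WT SAT, without overlap. Kif2a was most of it, with means of 73.6 and 59.1 CPM. In VAT these sums overlapped, at 60.4 to 68.7 CPM in KO and 61.6 to 66.6 CPM in WT. In SAT 1 of the 26 tested non-mitotic members was higher in KO and 1 was lower, beside the 3.46% and 2.43% of all tested genes, and their median log2 fold change was 0.09. In VAT edgeR called 0 higher and 0 lower, 2 had an unadjusted p under 0.05, both higher, and DESeq2 and limma-voom each called 1, higher; the median was 0.11. A call in 2 of 26 is near the 5.89% background of that comparison.

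**Figure D3:**
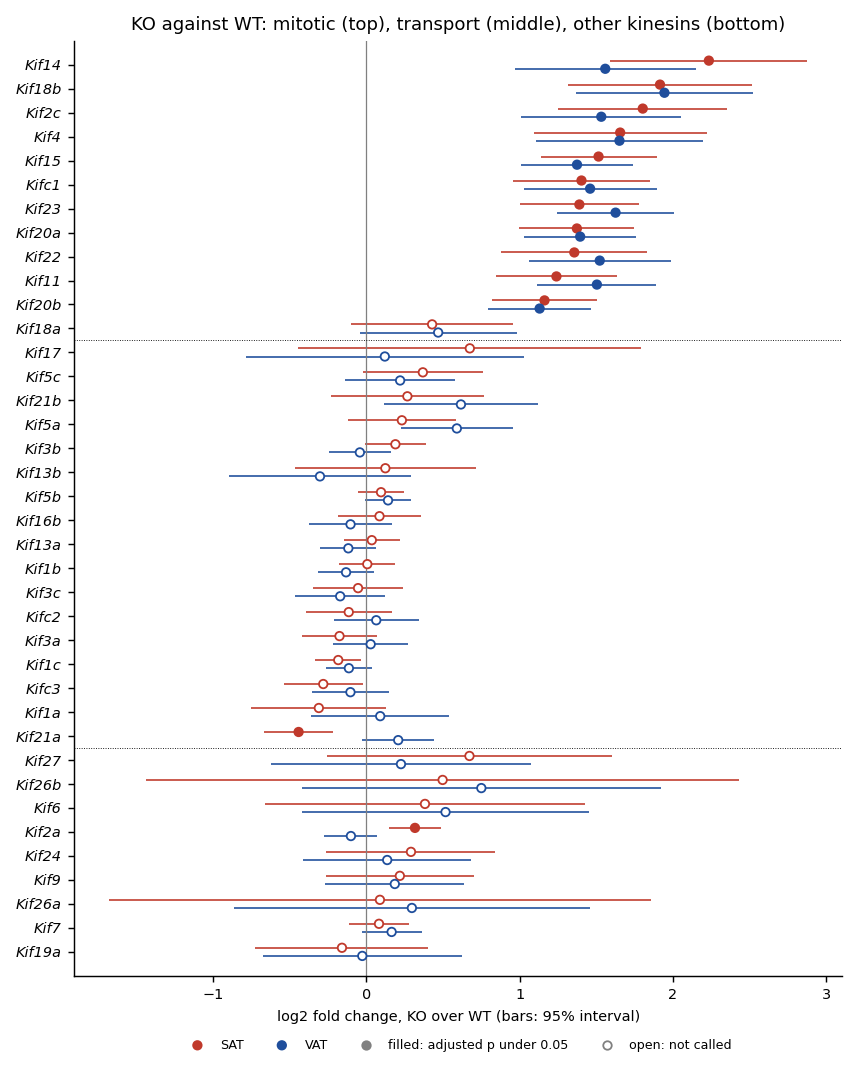
Log2 fold changes of KO over WT for the 38 tested kinesins in SAT (red) and VAT (blue), with mitotic members above, transport members in the middle and other kinesins below. Bars are 95% intervals and filled points have an edgeR adjusted p under 0.05. The 11 called mitotic members lie between 1.13 and 2.23 across both depots, while Kif2a and Kif21a are the filled points among the rest, in SAT.

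Kif21a, a motor that slows microtubule growth at the cell edge, was the transport kinesin that fell. It had 9.29, 12.6, 10.7 and 12.2 CPM in KO SAT, against 15.2, 14.1, 15.5 and 16.1 CPM in WT SAT, and 5.29, 5.74, 5.097 and 5.04 CPM in KO VAT, against 5.16, 4.21, 4.67 and 4.296 CPM in WT VAT. All KO SAT libraries were below all WT SAT libraries, as they were for 6.75% of all tested genes, with a log2 fold change of -0.44 ± 0.10 (SE; edgeR adjusted p = 0.0172), while KO VAT and WT VAT overlapped at 0.21 ± 0.11 (0.335). The difference of the 2 effects, VAT minus SAT, was 0.65 ± 0.15 (edgeR adjusted p = 0.0731, DESeq2 adjusted p = 0.00471). Leaving out KO SAT replicate 1 or replicate 3 ended the SAT call in edgeR (adjusted p = 0.0535 and 0.0557). Kif21a lies on chromosome 15 from 90933276 to 91049948 (GRCm38), 10.2 Mb before Nr4a1, and sequence of the 129S2 donor that may accompany the allele cannot be told apart from the allele.

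Kif2a, which removes tubulin from microtubule ends and prunes neuronal branches, was the member of the non-mitotic grouping that rose in KO SAT. It had 65.5, 79.05, 70.9 and 79.02 CPM in KO SAT, against 63.8, 57.3, 59.3 and 55.95 CPM in WT SAT, and 42.4, 42.7, 43.1 and 34.6 CPM in KO VAT, against 44.6, 44.6, 42.4 and 42.96 CPM in WT VAT. KO SAT libraries were all higher than WT SAT libraries, by 0.32 ± 0.08 (SE; edgeR adjusted p = 0.0249), and the VAT groups overlapped at -0.10 ± 0.08 (0.573). The difference of the effects was -0.42 ± 0.11 (edgeR adjusted p = 0.103, DESeq2 adjusted p = 0.0223). In SAT the call ended on leaving out KO SAT replicate 2 or 4, or WT SAT replicate 2 or 4 (edgeR adjusted p = 0.0858, 0.0946, 0.0606 and 0.0582). Its exons share 1229 bases with Dimt1 on the opposite strand. These 2 genes, Kif21a and Kif2a, were the non-mitotic members with an unadjusted p under 0.05 for the difference of effects, and edgeR called 0 of 26.

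The conventional kinesin heavy chains Kif5a, Kif5b and Kif5c carry cargo with or without light chains, and Kif5a and Kif5c are known mainly from neurons. Kif5a had 5.33, 5.13, 5.47 and 5.48 CPM in KO SAT, against 5.43, 4.59, 4.004 and 4.17 CPM in WT SAT, and 3.39, 3.27, 3.05 and 3.49 CPM in KO VAT, against 2.92, 2.45, 1.504 and 1.91 CPM in WT VAT. Every KO VAT library was above every WT VAT library, yet the log2 fold change of 0.59 ± 0.17 missed the call (edgeR adjusted p = 0.0583), and the SAT groups overlapped at 0.23 ± 0.16 (0.413). It passed in VAT by DESeq2 (adjusted p = 0.0119), by limma-voom (0.0409) and, with edgeR, without WT VAT replicate 1 (0.0172). Kif5b had 145, 145, 149 and 143 CPM in KO SAT, against 118, 141, 151 and 135 CPM in WT SAT, and 171, 181, 188 and 179.9 CPM in KO VAT, against 161, 155, 170.1 and 166 CPM in WT VAT. The KO VAT libraries were just above those of WT VAT, at 0.14 ± 0.07 (edgeR adjusted p = 0.300), and the SAT groups overlapped. Kif5a and Kif5b were the non-mitotic members whose KO VAT libraries lay above all of WT VAT, 2 of 26, where 7.02% of all tested genes did so, and 0 lay below (6.72%). Kif5c had 2.74, 2.54, 3.15 and 2.68 CPM in KO SAT, against 1.69, 2.96, 2.102 and 1.86 CPM in WT SAT, and 7.14, 6.55, 6.099 and 8.06 CPM in KO VAT, against 7.65, 5.87, 5.204 and 5.19 CPM in WT VAT. Genotypes overlapped in both depots for Kif5c (edgeR adjusted p = 0.236 in SAT and 0.547 in VAT), and the depots did not.

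**Figure D4:**
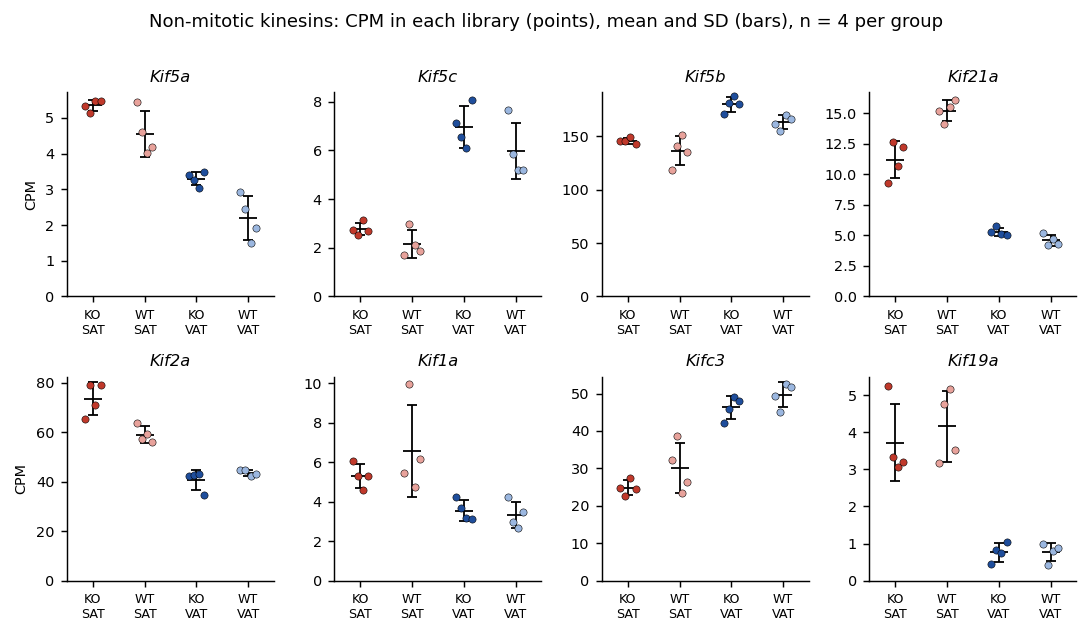
CPM of 8 non-mitotic kinesins in every library. Points are libraries, bars give the mean and SD of 4 libraries, and each axis starts at 0 with its own scale. Kif5c and Kifc3 lie higher in VAT, Kif21a, Kif2a and Kif19a lower in VAT, and KO and WT points of a depot mostly overlap.

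Kif1c, Kif1b and Kif1a belong to the family of fast vesicle motors, with Kif1a known from axons. Kif1c had 146, 162, 154 and 145 CPM in KO SAT, against 182, 177, 151 and 178 CPM in WT SAT, and 191, 202, 195 and 186 CPM in KO VAT, against 224, 202, 201 and 210.4 CPM in WT VAT. Genotypes overlapped in both depots, and the SAT value of -0.18 ± 0.07 (edgeR adjusted p = 0.132) passed without WT SAT replicate 3 (-0.24, 0.0225), the library that stood apart. Kif1b had 112, 121, 130.2 and 127 CPM in KO SAT, against 128, 133, 104 and 124 CPM in WT SAT, and 106, 105, 95.7 and 87.03 CPM in KO VAT, against 111, 113, 99.4 and 108 CPM in WT VAT. Its genotypes overlapped in both depots (edgeR adjusted p = 0.979 in SAT and 0.459 in VAT). Kif1a had 6.07, 5.28, 4.59 and 5.299 CPM in KO SAT, against 5.43, 9.98, 4.74 and 6.15 CPM in WT SAT, and 4.24, 3.67, 3.18 and 3.12 CPM in KO VAT, against 4.23, 2.99, 2.69 and 3.46 CPM in WT VAT. WT SAT replicate 2 was its highest library, and the genotypes overlapped in both depots (edgeR adjusted p = 0.378 in SAT and 0.884 in VAT).

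Kif3a and Kif3b form the heterotrimeric motor that carries cargo to the tip of cilia. Kif3a had 34.7, 35.4, 34.0 and 35.6 CPM in KO SAT, against 36.6, 36.9, 51.5 and 32.9 CPM in WT SAT, and 39.1, 35.3, 38.6 and 45.3 CPM in KO VAT, against 39.96, 34.6, 39.5 and 41.2 CPM in WT VAT. Kif3b had 38.8, 43.3, 40.8 and 42.1 CPM in KO SAT, against 38.6, 37.1, 29.4 and 39.6 CPM in WT SAT, and 39.3, 38.1, 37.1 and 30.3 CPM in KO VAT, against 38.98, 37.2, 35.9 and 36.99 CPM in WT VAT. The genotypes overlapped for both genes in both depots, with edgeR adjusted p between 0.237 and 0.938. In WT SAT replicate 3 Kif3a was the highest and Kif3b the lowest of the group. Kif7, which works in Hedgehog signalling at the cilium tip, had 14.3, 11.99, 13.8 and 14.9 CPM in KO SAT, against 14.2, 13.5, 11.9 and 12.4 CPM in WT SAT, and 13.04, 15.4, 14.6 and 16.1 CPM in KO VAT, against 14.04, 12.6, 12.6 and 13.6 CPM in WT VAT. It did not differ beyond its spread between genotypes in either depot (edgeR adjusted p = 0.620 and 0.368).

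Kif13a, an endosome motor, had 54.9, 56.5, 54.6 and 51.2 CPM in KO SAT, against 54.8, 56.9, 42.4 and 57.7 CPM in WT SAT, and 59.7, 52.5, 54.6 and 52.9 CPM in KO VAT, against 63.3, 56.95, 59.1 and 59.1 CPM in WT VAT. Its groups overlapped in both depots (edgeR adjusted p = 0.835 and 0.516). Kif21b, the neuronal and immune relative of Kif21a, had 5.47, 8.55, 7.74 and 9.096 CPM in KO SAT, against 8.63, 6.68, 3.67 and 6.53 CPM in WT SAT, and 7.83, 8.37, 6.62 and 5.37 CPM in KO VAT, against 5.33, 5.62, 3.84 and 3.62 CPM in WT VAT. The VAT groups overlapped in a single library, KO VAT replicate 4, and the fold change of 0.62 ± 0.23 missed the call (edgeR adjusted p = 0.162) but passed without WT SAT replicate 3 and KO VAT replicate 4 (0.73, 0.0366). Kifc3, a minus end motor of epithelial junctions and the Golgi, had 24.8, 22.7, 27.4 and 24.4 CPM in KO SAT, against 32.3, 38.5, 23.5 and 26.4 CPM in WT SAT, and 42.2, 45.8, 49.1 and 48.03 CPM in KO VAT, against 49.4, 45.2, 52.5 and 51.8 CPM in WT VAT. Genotypes overlapped in both depots, and the SAT value of -0.28 ± 0.12 (edgeR adjusted p = 0.172) passed without WT SAT replicate 3 (-0.38, 0.0449).

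The partners of transport kinesins were counted from 4 lists. Of all tested genes 5.89% were called between KO and WT in SAT and 4.10% in VAT. Nothing particular to the lists is read from their counts. Of 19 kinesin light chains and cargo adaptors, edgeR called 0 higher and 1 lower in KO SAT, the light chain Klc1 (-0.26 ± 0.06, adjusted p = 0.0194), and 0 in either direction in KO VAT, where 1 was higher and 3 lower at an unadjusted p under 0.05 and DESeq2 called 1 higher and 1 lower. Of 19 subunits of dynein and dynactin, the minus end motor complex that returns kinesin cargo, edgeR and limma-voom called 0 in both depots, DESeq2 called 1 lower in SAT, and 1 higher and 2 lower in SAT and 2 lower in VAT had an unadjusted p under 0.05. Of 21 intraflagellar transport genes, the cargo trains of Kif3a and Kif3b, edgeR called 0 in SAT (3 higher and 2 lower unadjusted) and 1 lower in VAT, Ift57 (-0.31 ± 0.07, adjusted p = 0.0183). Of 15 tubulins, the subunits of the track, 2 were lower in KO SAT, Tuba1c (-0.56 ± 0.10, edgeR adjusted p = 0.00396) and Tuba4a (-0.58 ± 0.16, 0.0402), and 0 were called in KO VAT, where 2 were higher unadjusted. Some of these edgeR calls rested on single libraries. The Klc1 call ended without KO SAT replicate 1 or 4 or WT SAT replicate 1 (adjusted p = 0.0502 to 0.0598), the Ift57 call without KO VAT replicate 4 or WT VAT replicate 2 (0.0630 and 0.0554), and the Tuba4a call without KO SAT replicate 1, 3 or 4 or WT SAT replicate 1 or 3 (0.0695 to 0.137) and by limma-voom (0.0664).

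Calls among the non-mitotic kinesins went both ways between depots. Between VAT and SAT, 9 of 26 were higher and 6 lower in KO mice, beside 23.3% of all tested genes called higher and 20.0% lower (43.3% in all), and 9 were higher and 5 lower in WT mice, beside 19.1% and 17.6% (36.7% in all). In all, 57.7% of the 26 were called in KO mice and 53.8% in WT mice, and whether these shares differ from those of all genes was not tested. Kif26a and Kif26b passed the filter through VAT alone. Without them 7 of 24 were higher in each genotype. VAT and SAT libraries did not overlap for 8 of 26 with VAT above and 7 with VAT below in KO mice (23.8% and 21.8% of all tested genes), and for 8 and 5 in WT mice (18.0% and 16.1%). The 8 with VAT above include Kif26a and Kif26b in both genotypes. In the same comparisons edgeR called 0 of the 12 mitotic kinesins in KO mice, where 5 were higher at an unadjusted p under 0.05 and DESeq2 and limma-voom each called 2 higher. It called 1 in WT mice, Kif14, higher in VAT by 1.10 ± 0.30 (SE; edgeR adjusted p = 0.00807). All 12 mitotic members had positive values in both, with medians of 0.40 in KO mice and 0.36 in WT mice on the log2 scale, against 0.02 and -0.00 over all tested genes. Without KO SAT replicate 4, 4 mitotic members were called in KO mice, without KO VAT replicate 1 3 were, and without WT SAT replicate 4 5 were called in WT mice. Scaled by library totals instead of TMM, 12 and 9 mitotic members were called higher in VAT, and the non-mitotic members split into 14 higher and 3 lower in KO mice and 15 higher and 4 lower in WT mice. That scaling moved the median of all tested genes by 0.36 and 0.29 and their calls to 9121 higher and 1408 lower in KO mice (3922 and 3370 with TMM) and 7845 higher and 1323 lower in WT mice (3217 and 2970 with TMM). The KO effects and the depot differences share groups of libraries, so their values are set side by side and not compared.

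**Figure D5:**
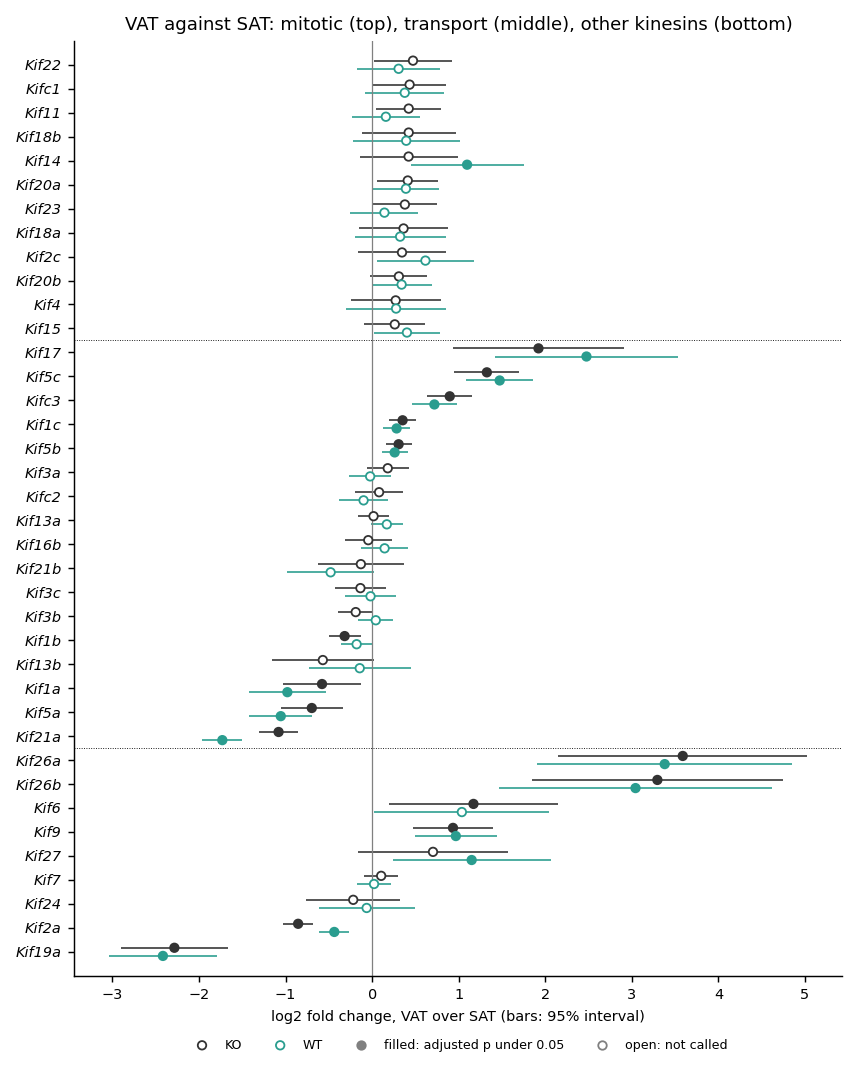
Log2 fold changes of VAT over SAT for the 38 tested kinesins in KO mice (black) and WT mice (green), with mitotic members above, transport members in the middle and other kinesins below. Bars are 95% intervals and filled points have an edgeR adjusted p under 0.05. Mitotic members lie slightly above 0 with Kif14 in WT mice as their filled point, and non-mitotic members lie on both sides of 0, down to -2.42 (Kif19a in WT mice). The values of Kif26a and Kif26b, which passed the filter through VAT alone, are shown without being read.

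Among transport motors, those higher in VAT in both genotypes were Kif5c, Kif17, Kifc3, Kif1c and Kif5b. Kif5c was higher by 1.33 ± 0.17 (SE; edgeR adjusted p = 7.63e-06) in KO mice and by 1.47 ± 0.18 (3.80e-06) in WT mice, with no overlap. Kifc3 was higher by 0.90 ± 0.12 (SE; edgeR adjusted p = 9.07e-06) in KO and 0.72 ± 0.12 (0.000111) in WT mice. Kif17, a motor of dendrites and cilia, had 1.38, 1.45, 1.002 and 2.98 CPM in KO VAT, against 0.600, 0.389, 0.413 and 0.386 CPM in KO SAT, and 1.21, 1.97, 1.84 and 1.23 CPM in WT VAT, against 0.0913, 0.128, 0.701 and 0.259 CPM in WT SAT. It stayed low in every library and did not overlap between depots, at 1.92 ± 0.45 (SE; edgeR adjusted p = 0.00232) in KO and 2.48 ± 0.48 (0.000616) in WT mice. The abundant Kif1c and Kif5b differed by little, Kif1c by 0.35 ± 0.07 and 0.28 ± 0.07 and Kif5b by 0.31 ± 0.07 and 0.26 ± 0.07 on the log2 scale in KO and WT mice.

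Kif21a, Kif5a and Kif1a were lower in VAT in both genotypes. Kif21a was the member with the smallest p in WT mice, at -1.73 ± 0.11 (SE; edgeR adjusted p = 1.44e-09) on the log2 scale, and stood at -1.08 ± 0.11 (2.91e-07) in KO mice. Kif5a stood at -0.70 ± 0.16 (SE; edgeR adjusted p = 0.00225) in KO and -1.06 ± 0.17 (8.35e-05) in WT mice, the opposite direction to its relatives Kif5b and Kif5c. Kif1a stood at -0.58 ± 0.21 (SE; edgeR adjusted p = 0.0305) in KO and -0.98 ± 0.21 (0.00112) in WT mice, and its call in KO mice was lost without any of KO SAT replicates 1, 2 and 4 and KO VAT replicates 2, 3 and 4 (adjusted p = 0.0509 to 0.0828). Kif1b was lower in KO mice, at -0.32 ± 0.08 (SE; edgeR adjusted p = 0.00560), which turns to 0.03 when libraries are scaled by their totals. That scaling also ended the calls of Kif1a (-0.24, edgeR adjusted p = 0.348) and Kif5a (-0.35, 0.0763) in KO mice. In WT mice it was called lower without WT SAT replicate 3 (-0.25, adjusted p = 0.0144 with edgeR), as were Kif13b (-0.42, 0.0235) and Kif21b (-0.66, 0.0162).

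Among the other kinesins, Kif26a, which lacks motor activity, had 0.507, 1.96, 1.503 and 1.99 CPM in KO VAT, against 0.0240, 0.1295, 0.207 and 0.122 CPM in KO SAT, and 0.737, 1.12, 2.35 and 0.622 CPM in WT VAT, against 0.183, 0, 0.0667 and 0.189 CPM in WT SAT. Its relative Kif26b, which acts in Wnt5a signalling, had 0.365, 0.747, 0.566 and 0.961 CPM in KO VAT, against 0.0240, 0.1295, 0.0919 and 0.0203 CPM in KO SAT, and 0.563, 0.332, 0.475 and 0.194 CPM in WT VAT, against 0, 0.128, 0 and 0.0471 CPM in WT SAT. Every VAT library was above every SAT library of its genotype for both. They passed the filter on low counts through VAT alone, the depot where they are high. A test between depots could only find a difference and their folds over near 0 counts are not given. Kif19a, which trims the microtubules of motile cilia, had 0.446, 0.813, 0.741 and 1.05 CPM in KO VAT, against 5.26, 3.34, 3.06 and 3.21 CPM in KO SAT, and 0.975, 0.436, 0.811 and 0.875 CPM in WT VAT, against 3.17, 4.77, 5.17 and 3.51 CPM in WT SAT. It was lower in VAT without overlap, at -2.28 ± 0.29 (SE; edgeR adjusted p = 4.96e-06) and -2.42 ± 0.28 (3.15e-06) in KO and WT mice. Kif2a was lower in VAT too, at -0.85 ± 0.08 (edgeR adjusted p = 1.60e-07) in KO and -0.44 ± 0.08 (0.000302) in WT mice, a WT call that ended when libraries were scaled by their totals (-0.14, 0.0997).

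Kif9, known from motile cilia and sperm tails, averaged 2.91 ± 0.695 CPM in KO VAT and 1.52 ± 0.277 CPM in KO SAT, and 2.56 ± 0.546 CPM in WT VAT and 1.304 ± 0.211 CPM in WT SAT (SD, n = 4 each), higher in VAT by 0.93 ± 0.21 (edgeR adjusted p = 0.00187) and 0.97 ± 0.22 (0.00200). Kif27 had 1.26, 0.659, 0.697 and 0.656 CPM in KO VAT, against 0.480, 0.414, 0.436 and 0.670 CPM in KO SAT, and 0.693, 0.851, 0.831 and 0.428 CPM in WT VAT, against 0.183, 0.408, 0.1001 and 0.542 CPM in WT SAT. It overlapped between depots and was called in WT mice alone (1.15 ± 0.42, edgeR adjusted p = 0.0398), a call lost without any of WT SAT replicates 1 and 3 and WT VAT replicates 1, 2 and 3 (0.0683 to 0.115). Kif6 was higher by 1.17 ± 0.45 (edgeR adjusted p = 0.0428) in KO mice and stood at 1.04 ± 0.46 (0.0919) in WT mice. Its call in KO mice was lost without any of KO SAT replicates 2, 3 and 4 and KO VAT replicates 2, 3 and 4 (0.0627 to 0.158). Kif24, which holds back cilium growth at the mother centriole, was not called in any comparison, nor were Kif3a, Kif3b, Kif3c, Kif7, Kif13a, Kif13b, Kif16b, Kif21b and Kifc2. Their mean levels ran from 1.08 CPM (Kif24 in WT VAT) to 59.6 CPM (Kif13a in WT VAT).

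Markers of progenitors and of other cell types also differed between the depots. In VAT 23.3% of all tested genes were called higher and 20.0% lower in KO mice, and 19.1% and 17.6% in WT mice. Of the 9 listed progenitor markers, edgeR called 1 higher and 6 lower in VAT in each genotype. Ly6a averaged 350 CPM in KO VAT, against 1359 CPM in KO SAT, and 404 CPM in WT VAT, against 1442 CPM in WT SAT. Pdgfrb went the other way, with 424 CPM in KO VAT, against 318 CPM in KO SAT, and 457 CPM in WT VAT, against 364 CPM in WT SAT. The 8 mesothelial markers summed to 807 to 1535 CPM in KO VAT, against 6.62 to 9.87 CPM in KO SAT, and to 807 to 1552 CPM in WT VAT, against 7.35 to 12.2 CPM in WT SAT. All 8 of 8 were called higher in VAT in both genotypes. Some were near 0 in SAT, such as Upk1b (0.0168 CPM in KO SAT and 0.00638 CPM in WT SAT) and Wt1 (0.0347 and 0.00638 CPM). For such markers a test between depots could only find a difference, so this count is not read. Of the 12 tested Schwann and neural markers, 6 were lower in VAT in KO mice and 8 in WT mice, with sums of 68.2 to 91.2 CPM in KO VAT, against 396 to 532 CPM in KO SAT, and 75.9 to 93.6 CPM in WT VAT, against 442 to 791 CPM in WT SAT. The neuronal marker Snap25 was under 1 CPM in every library. Pericyte and smooth muscle markers were higher in VAT for 8 of 9 in KO mice and 7 of 9 in WT mice, with sums of 5103 to 6630 CPM in KO VAT, against 2158 to 2979 CPM in KO SAT, and 5496 to 5993 CPM in WT VAT, against 2666 to 4567 CPM in WT SAT. The part of these cell types in the depot differences of Kif1a, Kif5a, Kif5c, Kif9, Kif17, Kif19a, Kif21a, Kif26a, Kif26b and Kifc3 was not tested. Between genotypes edgeR, DESeq2 and limma-voom called 0 of 8 mesothelial and 0 of 6 tested lymphocyte markers in either depot. In SAT 1 mesothelial marker was lower at an unadjusted p under 0.05, and 8 of the 10 listed lymphocyte markers were under 1 CPM in every library. Other lists had calls between genotypes, where 5.89% of all tested genes were called in SAT and 4.10% in VAT. In KO SAT Kdr (endothelial, 0.95, edgeR adjusted p = 0.0248), Ngfr (Schwann and neural, 0.97, 0.0225) and Lum (progenitor, 0.36, 0.0417) were higher and Tagln (smooth muscle, -0.56, 0.0487) and Syp (neural, -0.53, 0.0235) lower. In KO VAT 3 of 6 adipocyte markers (Plin1, Adipoq and Cidec), Ngfr (1.16, edgeR adjusted p = 0.0105) and Cd68 (myeloid, 0.60, 0.0491) were higher. The part of these cell types in the genotype values of the kinesins was not tested.

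The partner lists of transport kinesins were called in both directions between depots, where 43.3% of all tested genes in KO mice and 36.7% in WT mice were called. Nothing particular to the lists is read from their counts. Of 19 light chains and adaptors, 5 were higher and 4 lower in VAT in KO mice, and 3 higher and 4 lower in WT mice. Fez1, a cargo adaptor of neurons, stood at -1.42 and -1.24 on the log2 scale in KO and WT mice. The light chain Klc3, counted among the higher, averaged 1.69 CPM in KO VAT, against 0.0445 CPM in KO SAT. In WT mice it averaged 1.34 CPM in VAT, against 0.109 CPM in SAT. Its SAT levels were near 0, so its folds are not given and its calls are not read. Of 19 dynein and dynactin subunits, 6 were higher and 3 lower in KO mice and 6 higher and 1 lower in WT mice. Of 21 intraflagellar transport genes, 5 were higher and 1 lower in KO mice and 10 higher and 1 lower in WT mice.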

How the data were processed

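The authors deposited a table of whole-number read counts per gene symbol and library, and a second table of normalized values, a signal equal to the counts divided by 1 factor per library, whose factors alone were read. The submitters' processing notes name the build mm10 and the tools featureCounts, STAR, DESeq and FastQC, with no versions. How the authors' counting treated strand and multimapped reads is not stated in these sources. The library kit that the labels' protocols name does not mark strand, so overlapping genes on opposite strands cannot be told apart.

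Counts were tested with edgeR 4.0.16 (R 4.3.3): filterByExpr, TMM scaling, 1 coefficient per group over all 16 libraries (12 residual degrees of freedom), quasi-likelihood F tests, and Benjamini-Hochberg adjustment over 16842 genes, with a call at an adjusted p under 0.05. The biological coefficient of variation was 0.156. The scripts were tested on simulated data. CPM are counts per 1000000 of the TMM-scaled total, and ± after a log2 fold change is its standard error, the change divided by the square root of F. Exon lengths and overlaps came from GENCODE vM21 (GRCm38) and promoter sequences from RefSeq. DESeq2 1.42.0, limma 3.58.1, other scalings and filters, and leaving out libraries served as alternatives. The members, roles, lists and motif were chosen with earlier results of these data known. Values in every library are given for the mitotic members and for the 8 non-mitotic members with the smallest p in each comparison, and other members by range and count.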

Additional observations from a re-analysis of the deposited data

Results flagged for a closer look

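In 7 of 160 groups of 4 libraries the highest or lowest library lay far from the other 3. The 160 are each tested kinesin, and the mitotic and non-mitotic summed CPM, in each group. In the 7 the gap exceeded Dixon's 95% limit for 4 libraries, and chance alone gives this in about 5% of such groups. Kif13b was at 11.01 CPM in WT SAT replicate 3, against 37.76 to 40.93 CPM in the other WT SAT libraries. Kif2a was at 34.64 CPM in KO VAT replicate 4, against 42.39 to 43.09 CPM in the other KO VAT libraries. Kif3c was at 10.48 CPM in KO SAT replicate 4, against 13.37 to 13.6 CPM. Kif19a was at 5.256 CPM in KO SAT replicate 1, against 3.055 to 3.341 CPM, and Kif17 was at 0.6 CPM in the same library, against 0.3858 to 0.4135 CPM. Kif27 was at 1.258 CPM in KO VAT replicate 1, against 0.6563 to 0.697 CPM. Kif9 was at 1.75 CPM in WT VAT replicate 4, against 2.731 to 2.904 CPM. None of the 7 was a mitotic kinesin, but the number flagged is near that of chance and nothing is read from this.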

How the results depend on the processing

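The counts of mitotic kinesins called higher in KO, 11 in each depot, and called lower, 0, were the same under every alternative run, and with each library left out they ranged from 11 to 11 and 0 to 0. Of the non-mitotic kinesins in KO against WT SAT (1 higher, 1 lower), 0 and 0 were called when only the libraries compared were fitted, and 2 higher and 3 lower without WT SAT replicate 3 and KO VAT replicate 4, a setting chosen after seeing the data; single libraries left out gave 0 to 1 higher and 0 to 3 lower. In VAT (0 higher) 1 was called by DESeq2, limma-voom, library totals, a mean of at least 1 CPM, the replicate block and the added setting, and 0 to 1 with a library left out. Mitotic kinesins higher in VAT than SAT in KO mice (0) numbered 2 by DESeq2, limma-voom, a mean of at least 1 CPM and the added setting, 1 by RLE, 12 by library totals, 3 with only the libraries compared, and 0 to 4 with a library left out. In WT mice (1) they numbered 2 by DESeq2, 9 by library totals, 0 with only the libraries compared and 1 to 5 with a library left out. Library totals gave 14 higher and 3 lower non-mitotic kinesins in KO mice and 15 higher in WT mice, and the added setting 8 lower in WT mice; with a library left out these ranged over 8 to 9 higher and 5 to 6 lower in KO and 8 to 9 and 5 to 8 in WT mice. For the difference of KO effects DESeq2 called 1 higher and 1 lower non-mitotic kinesin, and leaving out a library gave 0. Kif1b, lower in VAT in KO mice, turned to 0.026 on the log2 scale with library totals; no other called value named in the text changed sign. The causes of these changes were not tested. Same-numbered libraries deviated together by correlations of -0.16 to 0.18 (over 0.1 in 3 of 4 pairs of WT VAT with WT SAT and in 0 of 4 of KO VAT with KO SAT), and not every library correlated best with its own number, so the numbers were not taken as pairs; blocking on them called 1 (KO mice) and 2 (WT mice) mitotic kinesins higher in VAT, and a replicate block within genotype called 2 and 2, and it ended the depot calls of Kif6 in KO mice (edgeR adjusted p = 0.0761) and Kif27 in WT mice (0.0651). Over all genes, calls between KO and WT numbered 992 in SAT (1710 by DESeq2, 509 with only the libraries compared, 469 to 1015 with a library left out) and 690 in VAT (1248 by DESeq2, 412 to 625 with a library left out), and calls of the difference of KO effects 45 (563 by DESeq2, 29 by library totals, 14 blocked by number, 11 blocked within genotype, 7 to 149 with a library left out). Depth limits Kif6, Kif14, Kif17, Kif12, Kif26a, Kif26b, Kif27 and Kif2b, which had under 10 counts in some libraries.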
